A study of Homo sapiens with 54 samples.

Results

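The genes described here are MYC and 38 genes that cells use to build ribosomes, 39 of the 27978 genes in the deposited count table. They were chosen by name, with earlier results of these data known, and all 39 had enough counts for a test in every comparison. The RNA was that of MDA-MB-231, an established triple-negative breast cancer cell line, and all results rest on this 1 line. Compound Kushen Injection (CKI) is an extract of medicinal plants. Cells received CKI at a dose of 2 mg/ml, an equivalent dose of a mixture of some of its components, or no treatment. The 54 libraries form 18 groups of 3 replicates, in 3 sets that each have their own untreated and CKI groups. In batch 1, sampled at 24 h and at 48 h, the mixtures were OmtOspc (oxymatrine and oxysophocarpine alone), MacOmtOspc (these with macrozamin), N-OmtOspc (CKI from which oxymatrine and oxysophocarpine were removed) and N-MacOmtOspc (CKI from which macrozamin was removed as well). In batch 2, sampled at 48 h, the mixtures were N-Mac, N-Nme, N-Omt and N-Tri, each CKI without 1 compound: macrozamin, n-methylcytisine, oxymatrine or trifolirhizin. The comparisons ask whether ribosome biogenesis genes changed with CKI and how the response to each mixture differed from it.

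MYC is a transcription factor that, paired with MAX, binds the E-box CACGTG and drives growth programs, of which ribosome production is the best known. In the nucleolus, RNA polymerase I (Pol I) transcribes the precursor of ribosomal RNA (rRNA), small nucleolar ribonucleoproteins (snoRNPs) guide its chemical modification, and large sets of assembly factors cut and fold it into the small and the large ribosomal subunit. The process takes up much of the energy of a proliferating cell, and the nucleoli of cancer cells are often enlarged. The 39 genes are MYC, 6 genes of Pol I and its factors, 8 of snoRNPs and nucleolar phosphoproteins, 9 of small subunit assembly and 15 of large subunit assembly.

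Total counts per library were between 17673537 and 26138924, with a median of 22568666.5. At this depth every member had a test, and levels are given as CPM (a gene's reads relative to all reads of its library, after TMM scaling), for each library or as mean ± SD. CPM are shares of the polyadenylated RNA of a library, so fewer cells that express a gene and less of its RNA per cell cannot be told apart. At 24 h, CKI replicate 1, OmtOspc replicate 2 and N-MacOmtOspc replicate 2 stood apart from their groups. They were picked because their labels, unlike the others, carry no number after the treatment code. Over 1151 genes that differed at least 2-fold between untreated cells of the 2 batches, their deviations followed that difference with slopes of 0.367, 0.320 and 0.336, against -0.220 to 0.0597 in the other 33 libraries of batch 1. The deviation of these 3 libraries over the 39 genes had medians of 0.046, 0.105 and 0.217 on the log2 scale, against -0.135 to 0.129 in the others, and counts at 24 h are given with and without them. VIM (521 to 1505 CPM over all libraries), CD44 (345 to 716 CPM) and AXL (273 to 1277 CPM), markers of MDA-MB-231, were present throughout. ESR1 reached 0.342 CPM, PGR 0.0949 CPM and CDH1 7.15 CPM. Of 4 fibroblast genes, chosen because fibroblasts were also cultured in the study, COL1A1 lay between 9.05 and 67.5 CPM, COL1A2 between 0.691 and 43.5, PDGFRB between 2.28 and 14.9 and COL3A1 between 0 and 4.10. The summed level of these 4 genes was 53.4 to 63.1 CPM untreated and 27.9 to 46.9 CPM with CKI at 24 h, 68.9 to 71.5 and 39.7 to 46.1 CPM at 48 h in batch 1, and 30.5 to 40.6 and 37.0 to 37.9 CPM in batch 2. Their part in the results was not tested.

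The DNA sequence that MYC and MAX bind was looked up at the start sites of the members, since MYC and the ribosome biogenesis genes are grouped by that link. RefSeq promoter windows (GRCh38.p14, 250 bases before to 50 after the start) were matched by symbol for 31 of the 39 members. The E-box CACGTG, which reads the same on either strand, was present in 14 of the 31 (45.2%). It was present in 10.3% of the 17688 genes of the count table with such a window. Those genes include some without enough counts for a test, unlike the members, so the shares are of unlike sets. In 13 of the 14 the E-box started within 50 bases of the transcription start. The sites below belong to members of all 4 roles, with the E-box in capitals and up to 12 bases on each side, written along the coding strand.
MYBBP1A, chr17:4555340-4555369, - strand: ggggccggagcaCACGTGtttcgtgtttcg
FBL, chr19:39846356-39846385, - strand: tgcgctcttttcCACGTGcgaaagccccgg
RRP9, chr3:51941892-51941921, - strand: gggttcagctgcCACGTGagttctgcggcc
UTP20, chr12:101280083-101280112, + strand: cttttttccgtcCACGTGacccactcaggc
DDX21, chr10:68956604-68956633, + strand: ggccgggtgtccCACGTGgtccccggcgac
BYSL, chr6:41921515-41921544, + strand: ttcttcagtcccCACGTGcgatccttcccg
PES1, chr22:30591880-30591909, - strand: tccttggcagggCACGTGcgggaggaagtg
GNL3, chr3:52686026-52686055, + strand: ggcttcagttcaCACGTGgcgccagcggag
UTP20, the member with the largest decreases, has its E-box close to the end of the 250 bases before its start (chr12:101279855-101280104, + strand):
UTP20 promoter: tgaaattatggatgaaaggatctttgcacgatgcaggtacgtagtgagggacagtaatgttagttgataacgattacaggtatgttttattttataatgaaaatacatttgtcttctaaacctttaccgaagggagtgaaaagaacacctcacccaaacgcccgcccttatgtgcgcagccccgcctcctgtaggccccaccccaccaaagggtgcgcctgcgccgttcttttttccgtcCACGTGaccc
For members with and without the E-box in the window, the median log2 fold changes with CKI at 48 h were -0.51 and -0.59 in batch 1 and -0.72 and -0.76 in batch 2, given as a description without a test. A match shows only that these letters lie in the window.

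With CKI the ribosome biogenesis genes were lower in each set, and more of them were called at 48 h than at 24 h. A gene was called DE (differentially expressed) where the quasi-likelihood test of edgeR gave a Benjamini-Hochberg adjusted p under 0.05, the adjustment covering all genes tested. At 24 h 20 of the 39 members were lower and 0 higher, where 14.8% of all genes tested were lower and 15.3% higher. At 48 h 35 were lower and 0 higher in batch 1 (all genes: 27% lower, 27% higher), and 37 were lower and 0 higher in batch 2 (all genes: 34.2% lower, 32.3% higher). In each of these comparisons 0 members were higher at an unadjusted p under 0.05, and DESeq2 called 0 higher, but with library sizes alone RRN3 and NOC2L were called higher in batch 2. The median log2 fold change over the members was -0.33, -0.57 and -0.76, against 0.02, 0.01 and -0.01 over all genes tested. Lower in all 3 comparisons were 20 members, a pattern that 12.3% of 14667 genes showed, and lower in both batches at 48 h were 35 (24.3% of genes). Without the 3 libraries that stood apart, 19 members were lower at 24 h and 0 higher. The spread between libraries was wider at 24 h than at 48 h, which limits calls at 24 h. A test of the CKI effect between the times in batch 1 called 0 members by edgeR and 4 by DESeq2.

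**Figure D1:**
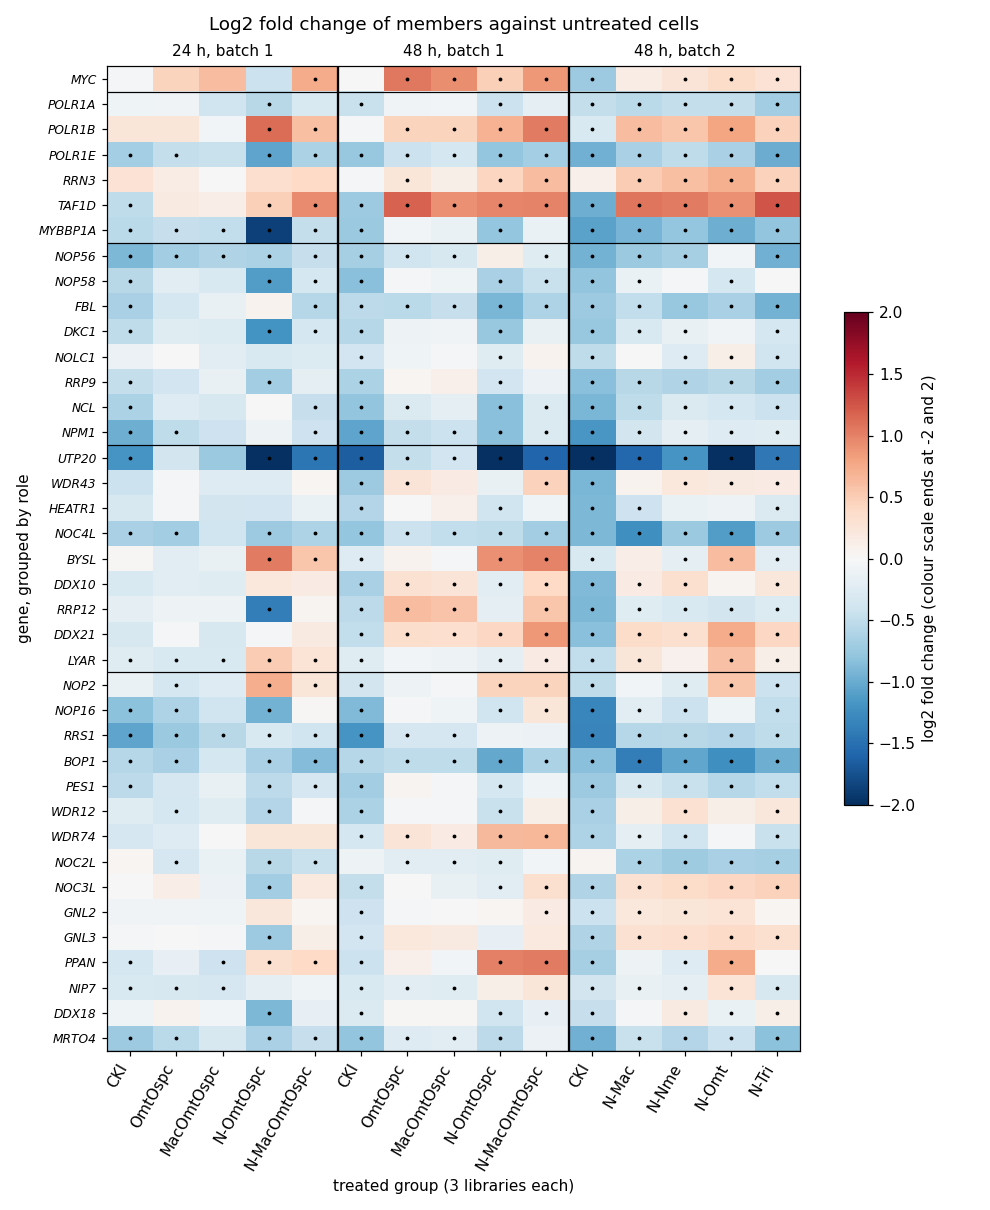
Log2 fold change of each of the 39 members (rows, ordered by role) in the 15 comparisons with untreated cells of the same time and batch (columns), on a color scale from lower (blue) to higher (red). The CKI columns are blue in nearly all rows, with medians from -0.33 to -0.76, while the mixture columns mix both colors, with UTP20 the darkest blue row and TAF1D called higher in 10 of the 12 mixture columns.

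MYC itself was lower with CKI in 1 of the 3 sets. In untreated cells at 24 h MYC was at 181, 180.1 and 183 CPM in the 3 libraries, and with CKI at 243, 146 and 143 CPM. The high CKI value belongs to replicate 1, which stood apart, and the other CKI libraries lay below all untreated ones, so that the groups overlapped only through replicate 1. The log2 fold change was -0.03 ± 0.23 (SE), with an adjusted p of 0.931 by edgeR. After 48 h in batch 1 MYC was at 190.04, 195 and 217 CPM untreated and 198, 207 and 190.5 CPM with CKI, groups that overlapped (log2 fold change -0.01 ± 0.09, adjusted p = 0.903 by edgeR). In batch 2 it was at 220.3, 184 and 286 CPM untreated and 138, 136 and 144 CPM with CKI. There every CKI library lay below every untreated one, as 35.6% of genes did, and MYC fell by 0.72 on the log2 scale (SE 0.08, adjusted p = 2.48e-09 by edgeR). The difference between the batches in the effect of CKI on MYC was -0.70 ± 0.14 (SE; adjusted p = 0.00172 by edgeR), although untreated MYC varied widely within batch 2. With all 54 libraries in 1 fit this difference was not called.

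With the mixtures MYC was called higher than in untreated cells in 8 of 12 comparisons (edgeR). In batch 1 at 48 h it reached 407, 422 and 427 CPM with OmtOspc, 368, 422 and 357 CPM with MacOmtOspc, 270.2, 298 and 269 CPM with N-OmtOspc and 386, 314 and 401 CPM with N-MacOmtOspc. None of these libraries overlapped the untreated or the CKI range. The log2 fold changes against untreated cells were 1.06, 0.93, 0.48 and 0.87, each with an SE of 0.09 and an adjusted p of at most 3.2e-05 by edgeR. In batch 2 MYC was at 255, 256 and 258 CPM with N-Mac, 273, 270.2 and 284 CPM with N-Nme, 299, 291 and 302 CPM with N-Omt and 283, 284 and 279 CPM with N-Tri. Only N-Omt lay above every untreated library, since untreated replicate 3 was as high as the other mixtures. MYC was called higher with N-Nme (0.26), N-Omt (0.37) and N-Tri (0.29), and its log2 fold change with N-Mac was 0.16 (adjusted p = 0.075 by edgeR). The call with N-Nme was lost without untreated replicate 2 (log2 fold change 0.12, adjusted p = 0.0816), and N-Mac was called without untreated replicate 3 (0.34, adjusted p = 1.68e-06) and with library sizes alone (0.23, adjusted p = 0.00815).

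At 24 h the mixtures split for MYC. It was at 287, 339.6 and 285 CPM with N-MacOmtOspc (log2 fold change 0.74, adjusted p = 0.0148 by edgeR), 247, 253 and 239.9 CPM with OmtOspc and 279, 300.1 and 259 CPM with MacOmtOspc. All 9 of these libraries lay above the untreated ones, but OmtOspc (0.44, adjusted p = 0.199) and MacOmtOspc (0.62, adjusted p = 0.0989) missed the threshold with the spread that edgeR shared over all 18 libraries of the set. Fitted on their 6 libraries alone, both were called, with adjusted p-values of 0.0159 and 4.46e-05. With N-OmtOspc MYC was at 105, 96.5 and 203 CPM. Replicates 1 and 2 lay far below the untreated range and replicate 3 above it. The log2 fold change was -0.43 (adjusted p = 0.117 by edgeR), and without replicate 3 it was -0.84 and was called (adjusted p = 0.000819).

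**Figure D2:**
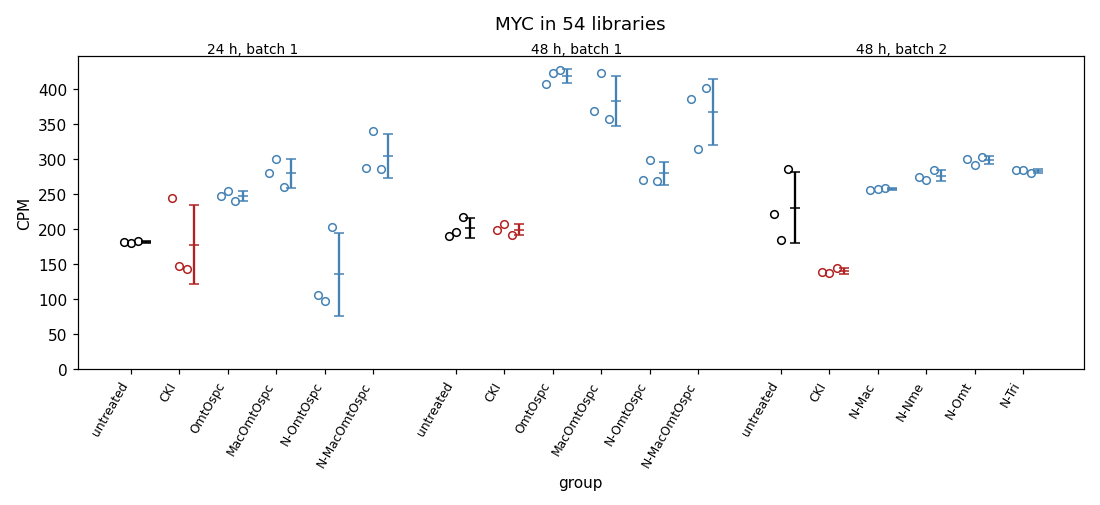
MYC level in CPM (vertical axis) in each of the 54 libraries (open circles), by group along the horizontal axis within the 3 sets, with mean and SD as a tick and bars. CKI lies level with untreated cells at 48 h in batch 1 and below them in batch 2, while all 12 mixture libraries at 48 h in batch 1 sit between 269 and 427 CPM, above the untreated range.

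The genes of Pol I and its factors differed in direction. POLR1A, the largest subunit of Pol I and part of its active site, was at 105, 100.03 and 93.3 CPM in untreated cells at 48 h in batch 1 and at 69.2, 74.0 and 76.5 CPM with CKI, without overlap. Its log2 fold change with CKI was -0.44 ± 0.10 (SE) there and -0.47 ± 0.05 in batch 2, and -0.08 (adjusted p = 0.82 by edgeR) at 24 h, where CKI replicate 1 was at 109.6 CPM and the others were at 79.7 and 80.8 CPM. In batch 2 it was also lower with every mixture, from -0.69 with N-Tri to -0.47 with N-Nme. POLR1E, another subunit, was called lower in 14 of the 15 comparisons with untreated cells.

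POLR1B, the subunit that completes the active site, went the other way in the mixtures. It was called higher in 10 of the 12 comparisons of a mixture with untreated cells, with log2 fold changes up to 1.12 with N-OmtOspc at 24 h, and lower with CKI in batch 2 alone (-0.31). Its adjusted p-values with CKI were 0.388 at 24 h and 0.653 at 48 h in batch 1 (edgeR). RRN3, the factor that makes Pol I competent to start transcription, was not called with CKI in any set (0.29, -0.03 and 0.10), although with library sizes alone it was called higher in batch 2 (0.19, adjusted p = 0.00486 by edgeR). In batch 2 RRN3 was at 31.8, 32.1 and 33.3 CPM untreated, 33.6, 36.3 and 34.1 CPM with CKI and 52.7, 52.7 and 54.3 CPM with N-Omt. All 12 mixture libraries of batch 2 lay above the untreated and CKI libraries, and RRN3 rose by 0.46 to 0.72 in the 4 mixtures (SE 0.05, adjusted p at most 6.24e-09 by edgeR). Related pseudogenes (RRN3P1, RRN3P2 and RRN3P3) held 0 to 60 counts in any library, so reads shared with them are a limit on RRN3 that the counts cannot resolve.

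TAF1D, a subunit of the selectivity factor that brings Pol I to the ribosomal DNA promoter, had the largest differences between CKI and the mixtures at 48 h among the members. In batch 1 TAF1D was at 68.8, 61.7 and 63.8 CPM untreated, 37.4, 39.6 and 39.9 CPM with CKI, 144, 141 and 158 CPM with OmtOspc and 125, 132 and 127 CPM with N-OmtOspc. In batch 2 TAF1D was at 92.9, 82.3 and 104 CPM untreated, 45.4, 48.7 and 47.2 CPM with CKI and 223, 222 and 224 CPM with N-Tri. The CKI libraries lay below and the mixture libraries above the untreated range in both. TAF1D fell with CKI in every set, by log2 fold changes of -0.51 at 24 h, -0.73 and -0.98 (adjusted p = 0.0114, 1.02e-05 and 2.89e-15 by edgeR). It rose in 10 of the 12 comparisons of a mixture with untreated cells, up to 1.26 with N-Tri. The rise with N-OmtOspc at 24 h (0.48) depended on scaling and was 0.18 (adjusted p = 0.325) with library sizes alone.

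MYBBP1A, a nucleolar protein that binds Myb and acts on Pol I transcription, fell in 12 of the 15 comparisons. In untreated cells at 24 h it was at 120.1, 115 and 125 CPM, with CKI at 82.5, 81.7 and 83.2 CPM and with N-OmtOspc at 32.0, 35.6 and 30.5 CPM. No treated library at 24 h overlapped the untreated range. The decrease with N-OmtOspc was -1.87 ± 0.11 (SE, adjusted p = 1.99e-09 by edgeR) on the log2 scale. In batch 2 it was lower with all 5 treatments, from -1.07 with CKI to -0.77 with N-Nme. The 3 comparisons that were not called, all at 48 h in batch 1, were OmtOspc (-0.06), MacOmtOspc (-0.13) and N-MacOmtOspc (-0.13), the last of which was called without its replicate 2 (-0.32).

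The snoRNP and nucleolar phosphoprotein genes were called higher in 1 comparison with untreated cells. Over 120 tests (8 members in 15 comparisons with untreated cells) they were called lower 81 times and higher 1 time. Of 90 tests of Pol I genes 27 were higher and 38 lower. For the small subunit 33 of 135 were higher and 56 lower, and for the large subunit 34 of 225 were higher and 114 lower. Over all genes and the same 15 comparisons, 27.9% of tests were called higher and 27.8% lower. The comparisons of a set share their untreated libraries, so these counts are not independent, and the difference between roles was not tested. With CKI 7 of the 8 were lower at 24 h and all 8 in both batches at 48 h, with median log2 fold changes of -0.60, -0.65 and -0.81.

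FBL, the ribose methyltransferase of the box C/D snoRNPs, had the lowest mean log2 fold change of the 8 over the comparisons with untreated cells (-0.55). In batch 1 at 48 h FBL was at 139, 159 and 154 CPM untreated, 112, 107 and 95.3 CPM with CKI and 84.4, 76.8 and 78.6 CPM with N-OmtOspc. In batch 2 FBL was at 155, 149 and 145 CPM untreated, 89.4, 92.5 and 88.4 CPM with CKI and 75.2, 81.4 and 75.4 CPM with N-Tri. FBL was lower in all 10 comparisons at 48 h, from -0.95 with N-Tri to -0.46 with MacOmtOspc, and the value with CKI in batch 2 (-0.73) lay within the range of the 4 mixtures. At 24 h FBL was lower with CKI (-0.65) and N-MacOmtOspc (-0.57), while with N-OmtOspc it was at 204, 209 and 153 CPM beside 198, 181 and 158 CPM untreated.

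NPM1, an abundant nucleolar chaperone that is often mutated in leukemia, fell most with CKI among the 8. It averaged 1092 ± 41.5, 992 ± 23.1 and 1118 ± 7.39 CPM (SD, n = 3) in untreated cells of the 3 sets and 558 ± 27.4, 477 ± 43.1 and 498 ± 13.0 CPM with CKI. The log2 fold changes were -0.97, -1.06 and -1.17, each with an adjusted p of at most 6.32e-05 by edgeR. With the 4 mixtures of batch 2 the decreases were smaller, from -0.36 with N-Mac to -0.19 with N-Nme. NPM1 has many processed pseudogenes, and how the counting treated reads that map to several places is not given in the sources used here. Of the other box C/D core proteins, NOP56 was lower in 13 comparisons, from -0.96 to -0.24, but not with N-OmtOspc at 48 h (0.12) or N-Omt (-0.05, adjusted p = 0.379 by edgeR).

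NOLC1, a chaperone of snoRNPs, had the highest mean of the 8 (-0.17) and supplied the 1 call in the other direction. In batch 2 NOLC1 was at 193, 182 and 185 CPM untreated, 131, 134 and 132 CPM with CKI, 184, 184 and 189 CPM with N-Mac, 207, 205 and 195 CPM with N-Omt and 144, 137 and 143 CPM with N-Tri. CKI and N-Tri lay below the untreated range, N-Mac overlapped it and N-Omt lay above it. The log2 fold changes were -0.50 with CKI, -0.40 with N-Tri, -0.01 with N-Mac and 0.12 with N-Omt. The adjusted p for N-Omt was 0.0379 by edgeR, and the call was lost without any of untreated replicates 2 and 3 and N-Omt replicates 1 and 2 (0.09 to 0.11, adjusted p = 0.082 to 0.123). DKC1, the pseudouridine synthase of the H/ACA snoRNPs, was lower with CKI in each set (-0.50, -0.58 and -0.76).

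Among the small subunit genes, UTP20 had the largest decreases of all 39 members. UTP20 is a very large scaffold of the complex that processes the precursor of the small subunit rRNA. At 24 h it was at 28.5, 30.8 and 33.6 CPM untreated, 14.8, 14.1 and 12.2 CPM with CKI and 2.47, 1.82 and 2.80 CPM with N-OmtOspc. After 48 h in batch 1 UTP20 was at 35.7, 30.6 and 28.5 CPM untreated, 9.54, 9.68 and 11.1 CPM with CKI and 4.34, 5.18 and 4.59 CPM with N-OmtOspc. In neither set did the CKI or N-OmtOspc libraries overlap the untreated ones. The log2 fold changes with CKI were -1.18 ± 0.29, -1.64 ± 0.12 and, in batch 2, -2.09 ± 0.09 (SE), and with N-OmtOspc they were -3.70 ± 0.34 at 24 h and -2.74 ± 0.14 at 48 h, with adjusted p-values of at most 0.0053 by edgeR.

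UTP20 was lower in 13 of the 15 comparisons with untreated cells. In batch 2 UTP20 was at 48.8, 45.8 and 44.7 CPM untreated, 11.0, 11.3 and 10.3 CPM with CKI, 9.69, 11.8 and 10.8 CPM with N-Omt and 19.3, 20.2 and 21.7 CPM with N-Nme, without overlap with the untreated libraries. N-Omt and CKI overlapped, with a difference of -0.01 ± 0.10 on the log2 scale (SE, adjusted p = 0.908 by edgeR), and N-Nme had the smallest decrease of the 4 mixtures (-1.18). The 2 comparisons that were not called were OmtOspc and MacOmtOspc at 24 h. With OmtOspc the libraries were at 16.6, 32.1 and 23.7 CPM, and with MacOmtOspc at 17.0, 18.3 and 20.4 CPM. OmtOspc replicate 2, which stood apart, was the one within the untreated range. Without the 3 libraries that stood apart, the log2 fold changes of -0.62 (adjusted p = 0.0125) and -0.74 (adjusted p = 0.00186) were both called by edgeR. Without OmtOspc replicate 2 alone, the value with OmtOspc was also -0.62 but was not called (adjusted p = 0.205).

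**Figure D3:**
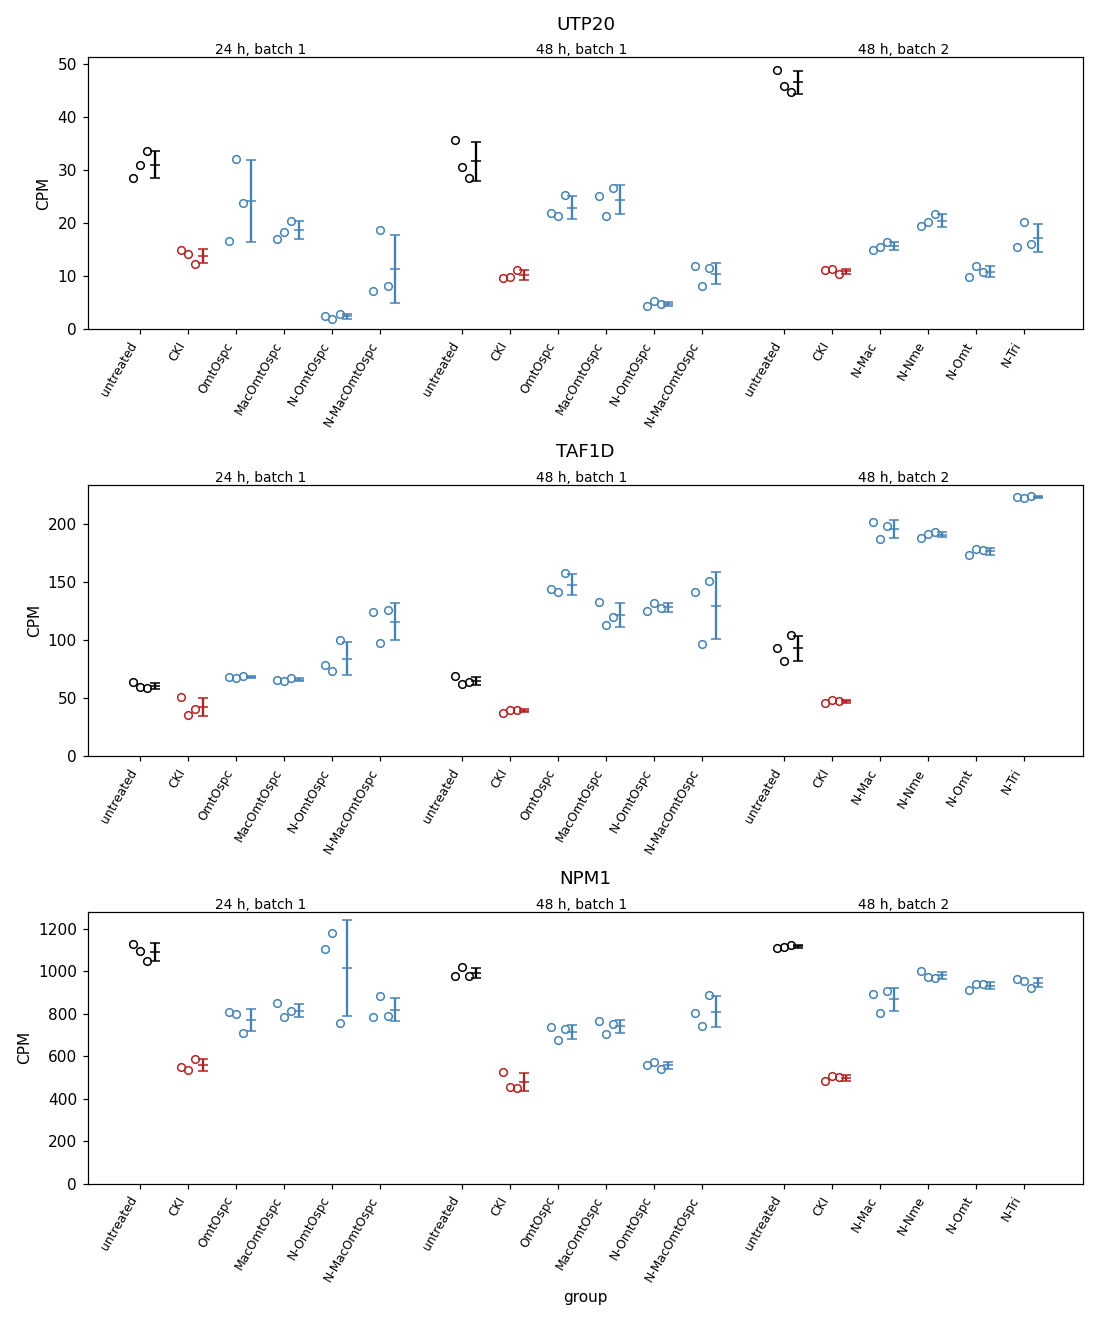
CPM (vertical axes, from 0) of UTP20, TAF1D and NPM1 in each library (open circles) by group and set, with mean and SD as a tick and bars. UTP20 is lower with nearly all treatments, TAF1D is below untreated cells with CKI and above them with most mixtures, and NPM1 is lowest with CKI, at 451 to 587 CPM.

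BYSL, which acts in a late step of small subunit maturation, had the highest mean of the 9 small subunit genes (0.20). In batch 1 at 48 h BYSL was at 76.7, 78.5 and 78.0 CPM untreated, 64.5, 65.5 and 64.4 CPM with CKI, 153, 142 and 142 CPM with N-OmtOspc and 132, 187 and 143 CPM with N-MacOmtOspc. CKI lay below the untreated range and both mixtures above it, and OmtOspc (0.07) and MacOmtOspc (-0.02) were not called. BYSL rose with N-OmtOspc (1.04 at 24 h, 0.91 at 48 h), with N-MacOmtOspc (0.56 and 0.98) and with N-Omt (0.62, at 128, 129.9 and 121 CPM beside 80.8, 78.7 and 87.1 CPM untreated). These are the 3 mixtures made of CKI without oxymatrine. N-Tri (-0.23) and N-Nme (-0.19) were lower.

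All 9 small subunit genes were lower with CKI in both batches at 48 h, with medians of -0.59 and -0.89. NOC4L was lower in 14 of the 15 comparisons with untreated cells, down to -1.22 with N-Mac. DDX21, a helicase that couples Pol I transcription to rRNA processing, fell with CKI at 48 h (-0.49 and -0.83) and rose with all 8 mixtures at 48 h, from 0.31 to 0.87. RRP12, an export and assembly factor, fell with CKI at 48 h in both batches (-0.52 and -0.90). It rose with OmtOspc (0.62), MacOmtOspc (0.57) and N-MacOmtOspc (0.56) at 48 h in batch 1, was at -0.17 with N-OmtOspc (adjusted p = 0.0672 by edgeR) and fell with the 4 mixtures of batch 2, from -0.37 to -0.24. WDR43 and DDX10, a protein and a helicase of early small subunit assembly, were lower with CKI at 48 h in both batches and higher with 3 of the 4 mixtures of batch 2 and with N-MacOmtOspc and OmtOspc at 48 h.

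The large subunit genes include BOP1, PES1 and WDR12, which form 1 complex, and these did not respond alike. BOP1 was at 121, 112 and 120.2 CPM in untreated cells of batch 2, 70.7, 64.2 and 63.8 CPM with CKI and 44.4, 45.7 and 45.8 CPM with N-Mac. PES1 was at 101, 94.9 and 105 CPM untreated, 60.3, 61.8 and 60.8 CPM with CKI and 88.5, 78.9 and 73.0 CPM with N-Mac. For WDR12 the levels were 36.0, 35.6 and 36.6 CPM untreated, 24.1, 22.4 and 22.5 CPM with CKI and 40.05, 37.1 and 40.1 CPM with N-Mac. With CKI all 3 genes lay below the untreated range, with log2 fold changes of -0.83, -0.72 and -0.65. With N-Mac they parted, as BOP1 fell further (-1.38 ± 0.07 (SE), adjusted p = 9.01e-18 by edgeR), PES1 fell less (-0.32) and WDR12 lay above the untreated range without being called (0.11, adjusted p = 0.109).

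BOP1 was lower in 14 of the 15 comparisons with untreated cells, the exception being MacOmtOspc at 24 h (-0.36, adjusted p = 0.281 by edgeR). At 24 h with CKI it was at 117, 212 and 203 CPM beside 280.03, 255 and 251 CPM untreated. Replicate 1, which stood apart, was far below the other CKI libraries, and without it the log2 fold change of -0.56 became -0.33 and was not called (adjusted p = 0.157 by edgeR). The call was also lost without any 1 of the untreated replicates (adjusted p = 0.0652 to 0.112). PES1 was lower in 10 comparisons, CKI at 48 h among them (72.7, 64.1 and 65.5 CPM beside 103, 108 and 117 CPM untreated, -0.70). WDR12 was lower with CKI at 48 h (-0.64 and -0.65) and higher with N-Nme (0.30, at 45.8, 41.6 and 45.5 CPM) and N-Tri (0.23, at 43.0, 44.2 and 39.7 CPM).

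PPAN, an assembly factor of the large subunit, had the highest mean of the 15 large subunit genes (0.08). In batch 1 at 48 h PPAN was at 18.3, 19.1 and 18.5 CPM untreated, 12.3, 15.6 and 13.5 CPM with CKI, 35.1, 39.5 and 37.7 CPM with N-OmtOspc and 40.9, 39.4 and 34.2 CPM with N-MacOmtOspc. In batch 2 PPAN was at 15.2, 11.9 and 15.2 CPM untreated, 9.71, 8.48 and 8.52 CPM with CKI and 24.0, 24.2 and 22.3 CPM with N-Omt. Like BYSL, PPAN rose with the mixtures lacking oxymatrine, by 1.01, 1.03 and 0.74 at 48 h (adjusted p at most 1.13e-09 by edgeR), and fell with CKI (-0.43 and -0.67). At 24 h its fold changes with N-OmtOspc (0.32, or 0.01 with library sizes alone) and CKI (-0.35, or -0.27 without replicate 1) did not hold their calls, which were also lost without any 1 of the untreated replicates. The read-through gene PPAN-P2RY11 held 0 to 13 counts in any library. These counts do not show how many reads of PPAN were shared with it or lost, so how far PPAN is affected is not known.

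With CKI 14 of the 15 large subunit genes were lower in each batch at 48 h. RRS1, which brings ribosomal proteins and the 5S RNA to the large subunit, fell most in every set (-1.06, -1.19 and -1.32). The large subunit factor NOP16 was next, at log2 fold changes of -0.82, -0.89 and -1.30. The exception was NOC2L, at 0.03, -0.10 and 0.05, which was lower with the 4 mixtures of batch 2 (-0.71 to -0.63). The remaining exceptions at 48 h were MYC and POLR1B in batch 1, and RRN3 in both batches. GNL3 and NOC3L fell with CKI at 48 h and rose with all 4 mixtures of batch 2, GNL3 by 0.30 to 0.38 and NOC3L by 0.30 to 0.46 on the log2 scale.

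Against untreated cells 10 of the 12 comparisons with a mixture had members called in both directions, and OmtOspc and MacOmtOspc at 24 h had them lower alone. At 24 h 6 members were higher and 20 lower with N-OmtOspc (all genes: 31.1% and 30.9%), 7 higher and 15 lower with N-MacOmtOspc (23.2% and 21.8%), 0 higher and 14 lower with OmtOspc (9.03% and 7.71%), and 0 higher and 6 lower with MacOmtOspc (5.61% and 4.84%). In the pair with 0 higher, DESeq2 also called 0 higher, and 0 and 1 were higher at an unadjusted p under 0.05. Without the 3 libraries that stood apart, the counts were 7 and 22, 9 and 17, 0 and 15, and 1 and 14. Leaving out 1 library lowered the number called from 22 to 10 for N-MacOmtOspc and from 6 to 2 for MacOmtOspc (both without untreated replicate 1), and from 14 to 4 for OmtOspc (without its replicate 3). Scaling mattered for N-OmtOspc at 24 h, whose TMM factor averaged 0.83. With library sizes alone the median of all genes moved by -0.31 and the split was 3 higher and 25 lower.

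At 48 h in batch 1 the same mixtures had 9 higher and 23 lower with N-OmtOspc (all genes: 38.3% and 38.3%), 17 and 10 with N-MacOmtOspc (35.8% and 35.3%), 9 and 12 with OmtOspc (29.1% and 28.7%), and 7 and 11 with MacOmtOspc (25.7% and 25.5%). The median log2 fold changes of the members were -0.24, 0.08, -0.04 and -0.06. With library sizes alone the splits were 14 and 13 for N-MacOmtOspc, 11 and 9 for OmtOspc (a shift of 0.125 in the median of all genes) and 9 and 6 for MacOmtOspc. In OmtOspc and MacOmtOspc the balance of higher and lower members turned with the scaling. N-MacOmtOspc replicate 2 differed from its group in many of these genes, with MYBBP1A at 137 CPM beside 98.8 and 94.0 CPM and TAF1D at 96.6 CPM beside 141 and 151 CPM.

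In batch 2 the counts were 9 higher and 22 lower with N-Mac (all genes: 36.9% and 35.4%), 12 and 24 with N-Nme (35.9% and 35.4%), 15 and 17 with N-Omt (38.4% and 39.9%), and 12 and 24 with N-Tri (34.8% and 37.4%). The medians were -0.20, -0.24, -0.07 and -0.32, against -0.76 with CKI. With library sizes alone the split for N-Mac was 13 and 18. Over all 15 comparisons with untreated cells 20 members were called in both directions (42% of genes were) and 18 were never called higher (29.2% of genes). Lower in at least 12 of the 15 were 10 members (9.44% of genes), namely POLR1E, MYBBP1A, NOP56, FBL, NPM1, UTP20, NOC4L, RRS1, BOP1 and MRTO4.

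Compared with CKI directly, most members were higher in every mixture at 48 h. In batch 1, 25 were higher and 4 lower with N-OmtOspc than with CKI (all genes: 36% and 37.1%), 32 and 0 with N-MacOmtOspc (33.1% and 34.1%), 35 and 0 with OmtOspc (25.9% and 25.8%), and 33 and 0 with MacOmtOspc (24% and 23.6%). For the 3 with 0 lower, 0 were lower at an unadjusted p under 0.05 and by DESeq2, but 2 were lower for N-MacOmtOspc with library sizes alone, which moved the median of all genes by -0.14. In batch 2 the counts were 35 and 3 with N-Mac (35.1% and 34.3%), 33 and 2 with N-Nme (35.8% and 35.7%), 32 and 2 with N-Omt (37.1% and 39.2%), and 26 and 3 with N-Tri (34.5% and 36.9%). The median differences from CKI were between 0.26 (N-OmtOspc) and 0.70 (N-Omt) on the log2 scale. The comparisons of a set share their CKI libraries. The paper's cell assays included CKI recombined from its fractions and a vehicle control, but the labels of these libraries name neither. A difference from CKI shared by the mixtures therefore cannot be told apart from how the mixtures were prepared.

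Member by member, 31 were higher than with CKI in at least 6 of the 8 comparisons at 48 h (20.8% of genes were) and 16 in all 8 (8.69% of genes). Lower with CKI in both batches and higher than with CKI in at least 6 of the 8 were 28 members (7.97% of genes). TAF1D differed most, by 1.64 to 2.24 on the log2 scale, and MYC was 0.49 to 1.09 above CKI. DDX21 (0.82 to 1.58), RRS1 (0.73 to 1.09), WDR43 (0.59 to 1.20), NOP16 (0.49 to 1.22) and PPAN (0.37 to 1.46) were higher in all 8. BOP1 and NOC2L were the members with 0 higher of 8, each lower in 4, with differences of -0.55 to 0.07 and -0.76 to 0.05. FBL was higher in 1 and lower in 2, and UTP20 ranged from -1.10 with N-OmtOspc to 1.26 with MacOmtOspc. At 24 h the counts were 13 higher and 11 lower for N-OmtOspc (all genes: 29.2% and 29.6%), 12 and 1 for N-MacOmtOspc (17.6% and 18.1%), 2 and 1 for OmtOspc (4.47% and 4.02%) and 3 and 0 for MacOmtOspc (6.02% and 5.57%). For MacOmtOspc 0 members were lower at an unadjusted p under 0.05 and by DESeq2. With library sizes alone N-OmtOspc had 8 and 19, with the median of all genes moved by -0.35.

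**Figure D4:**
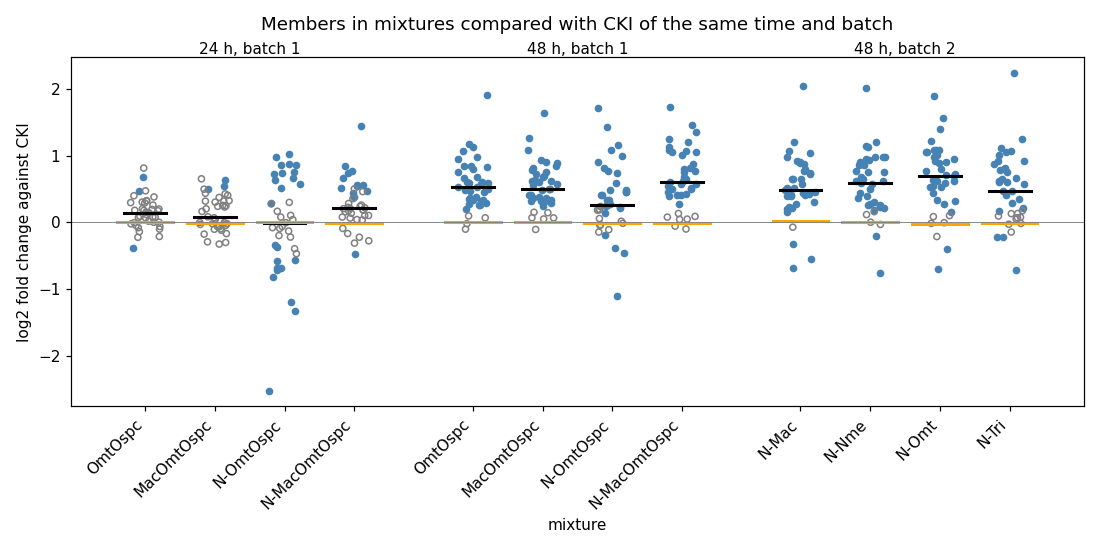
Log2 fold change of each member (points) between a mixture and CKI of the same time and batch, in 12 comparisons. Filled points are called members, black bars the median of the members and orange bars the median of all genes. For the 8 mixtures at 48 h most points lie above 0, and TAF1D is the highest in each at 1.64 to 2.24. There BOP1 lies below 0 in 6 of the 8, NOC2L in 7 and UTP20 furthest below in N-OmtOspc (-1.10).

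The effect of CKI at 48 h was compared between the batches. In 8 members it was more negative in batch 2 than in batch 1, and in 0 it was less negative, where 7.2% of all genes were called lower and 6.58% higher (1 member was less negative at an unadjusted p under 0.05, and DESeq2 called 0). Beside MYC these were UTP20 (-0.44 ± 0.13), NOP16 (-0.40 ± 0.11), RRP12 (-0.37 ± 0.12), DDX21 (-0.33 ± 0.09), MYBBP1A (-0.33 ± 0.09), NOP56 (-0.27 ± 0.07) and LYAR (-0.23 ± 0.07), as differences in log2 fold change with SE. With all 54 libraries in 1 fit 0 of the 8 were called. Between 24 and 48 h in batch 1 the effect of CKI differed in 0 members by edgeR (1.56% of all genes), in 10 at an unadjusted p under 0.05, all of them more negative at 48 h, in 4 by DESeq2 and in 5 without CKI replicate 1 at 24 h.

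The untreated cells themselves differed between sets. From 24 to 48 h in batch 1 untreated cells had 8 members lower and 0 higher (all genes: 4.52% and 4.51%, with 0 members higher at an unadjusted p under 0.05 or by DESeq2). Batch 2 had 17 members higher and 10 lower than batch 1 in untreated cells at 48 h (31.4% and 29.1% of all genes), or 20 and 7 with library sizes alone. Among the members BOP1 had the largest decrease between batches, from 241 ± 25.2 CPM in batch 1 to 118 ± 5.09 CPM in batch 2 (SD, n = 3), each scaled within its set. Each treatment was therefore compared only with the untreated cells of its own time and batch.

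Other genes of the same roles, listed by name with earlier results of these data known, were more often lower than higher with CKI. At 48 h in batch 2, where 34.2% of all genes were lower and 32.3% higher, 7 of 10 other Pol I genes were lower and 0 higher, 7 of 10 other snoRNP genes lower and 0 higher, 27 of 32 other small subunit genes lower and 2 higher, and 26 of 33 other large subunit genes lower and 4 higher. Their median log2 fold changes were -0.28, -0.47, -0.32 and -0.50. For 48 h in batch 1 (27% of all genes lower, 27% higher) the numbers lower were 4, 7, 22 and 21, and higher 0, 0, 0 and 3. At 24 h (14.8% of all genes lower, 15.3% higher) they were 2, 5, 6 and 7 lower and 0, 0, 0 and 2 higher. By the largest absolute mean over the 15 comparisons, UBTF, the factor that keeps ribosomal DNA open to Pol I, was lower in 15 of 15 (mean -0.65). RUVBL2, a helicase of snoRNP assembly, was lower in 14 (mean -0.69), UTP14A, a small subunit factor, in 10 (mean -0.46) and EBNA1BP2, a large subunit factor, in 13 (mean -0.64). Others on these lists were more often higher over the 15 comparisons. Among them were POLR1D (10 higher, 1 lower), NOP10 (6 and 0), DDX52 (9 and 0) and RSL24D1 (12 and 2).

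Among the partners and rivals of MYC, MXD1 and MXI1 were higher with every treatment. MYC activates genes as a dimer with MAX, and the MXD and MXI1 proteins compete for MAX and repress the same E-boxes. MXD1 was called higher in 15 of the 15 comparisons with untreated cells (1.48% of genes were), with a mean log2 fold change of 1.59. At 24 h MXD1 was at 8.95, 8.51 and 9.55 CPM untreated, 37.6, 21.7 and 19.1 CPM with CKI and 58.8, 59.1 and 57.9 CPM with N-OmtOspc. In batch 2 MXD1 was at 22.1, 18.4 and 27.7 CPM untreated, 48.6, 52.6 and 48.5 CPM with CKI and 89.9, 97.4 and 91.6 CPM with N-Omt. No treated library in these groups overlapped the untreated ones, CKI replicate 1 at 24 h being above the other CKI libraries of its set, and the smallest change in any comparison was 0.81, with MacOmtOspc at 24 h (adjusted p = 0.0155 by edgeR). MXI1 was also higher in 15 of 15, by 0.62 to 1.67 with a mean of 1.02.

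MXD3, a family member that is expressed in dividing cells, went down. It was lower in 13 of 15 comparisons, with a mean of -1.42, and was at 26.8, 28.4 and 21.1 CPM untreated, 15.4, 14.5 and 13.6 CPM with CKI and 6.68, 6.20 and 6.43 CPM with N-Mac in batch 2. MXD4 split between CKI and the mixtures of batch 2, being higher with CKI (0.37) and lower with N-Mac (-1.21), N-Nme (-0.96), N-Omt (-0.79) and N-Tri (-0.78). MAX was higher in all 5 comparisons at 24 h and in 8 of 15 in all, and lower with CKI in batch 2 (-0.23). MYCL, a MYC relative at 10 to 159 counts per library, was higher in 10 comparisons, all of them with mixtures, by up to 2.34, and was at 0.904, 1.13 and 1.25 CPM untreated and 7.11, 4.31 and 5.32 CPM with N-OmtOspc at 48 h in batch 1. Of the rest, MGA and MLX were each higher in 9 and lower in 1, MLXIP higher in 5 and lower in 3, and MNT higher in 3 and lower in 2. MYCN, at 0 to 4 counts, was not tested.

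**Figure D5:**
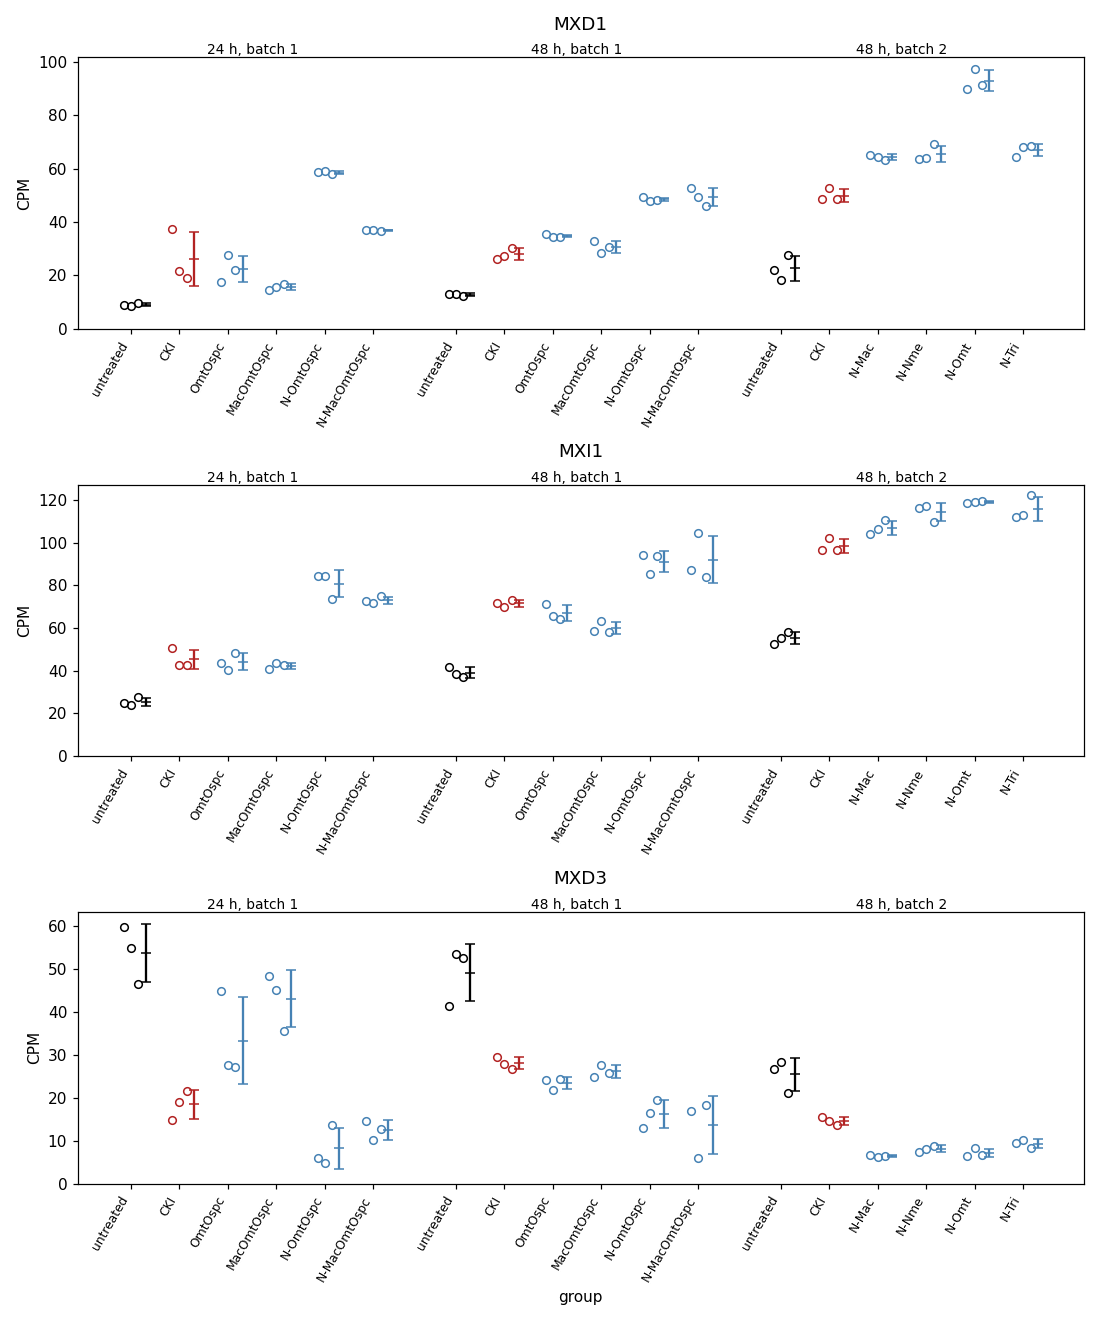
CPM (vertical axes, from 0) of MXD1, MXI1 and MXD3 in each library (open circles) by group and set, with mean and SD as a tick and bars. MXD1 and MXI1 were called higher in 15 of the 15 comparisons with untreated cells, and MXD3 was called lower in 13.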

How the data were processed

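RNA-seq was measured in 54 libraries of MDA-MB-231 cells (poly(A) RNA, paired reads of 150 bp). The authors deposited 1 table of counts per gene, raw and unnormalized. The submitters' processing notes name FastQC 0.11.4, Trim Galore 0.3.7, STAR 2.5.3a, Subread 1.5.2 with featureCounts, edgeR 3.22.3 and the hg19 build. Settings for strand and for reads that map to several places are not given in the sources used here.

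Groups follow the labels, which call replicates biological. Nothing says that they were separate cultures, so p-values measure the spread between these samples, which may be technical. After filterByExpr and TMM scaling, genes were tested by the quasi-likelihood test of edgeR 4.0.16 in R 4.3.3, with 1 fit for the 18 libraries of each time and batch (15191, 15513 and 15115 genes tested) and 12-library fits for the comparisons between batches and times. P-values were adjusted by the Benjamini-Hochberg method over all genes tested, and genes under 0.05 were called DE. The biological coefficient of variation was 0.175 at 24 h, 0.0763 at 48 h in batch 1 and 0.0480 in batch 2, so calls at 24 h were the least precise. An exact permutation test of 3 against 3 libraries cannot go below 0.1 and was not used. The procedure was checked on simulated counts with the same spread in every set and few changed genes, balanced in direction. That check does not cover the wider spread at 24 h or comparisons in which many genes changed.

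Members and gene lists were chosen with earlier results of these data known. All 39 members could be named. Values in every library are given for MYC, for the member with the highest and the lowest mean log2 fold change in each of the 4 other roles, and for FBL, POLR1A, RRN3, BOP1, PES1 and WDR12. Of the lists, counts and the member with the largest absolute mean are given, and all of the MYC network. Alternatives were DESeq2 1.42.0, other scalings and filters, other sets of libraries in the fit, a replicate block and leaving out each library.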

Additional observations from a re-analysis of the deposited data

Results flagged for a closer look

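In 8 members the effect of CKI at 48 h differed between batch 1 and batch 2 by the interaction test of edgeR, in each case toward a larger decrease in batch 2. The differences in log2 fold change (batch 2 minus batch 1) were -0.70 for MYC (adjusted p = 0.00172), -0.44 for UTP20 (adjusted p = 0.0225), -0.40 for NOP16 (adjusted p = 0.0198) and -0.37 for RRP12 (adjusted p = 0.0355). They were -0.33 for DDX21 (adjusted p = 0.0123), -0.33 for MYBBP1A (adjusted p = 0.0151), -0.27 for NOP56 (adjusted p = 0.0121) and -0.23 for LYAR (adjusted p = 0.0398). The number called was between 5 (without untreated replicate 2 of batch 1) and 11 (without untreated replicate 2 of batch 2) when 1 library was left out, and 0 with all 54 libraries in 1 fit. The 2 batches also differed in untreated cells, in 27 of the 39 members, and what sets the batches apart is not given beyond the label.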

How the results depend on the processing

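In the 15 comparisons with untreated cells no member changed direction in a called result under any alternative tried. For the other comparisons the direction of single members was not checked. The counts with CKI against untreated cells stayed within 1.5 times under each alternative. The counts that moved by more were mostly at 24 h. With MacOmtOspc against untreated cells at 24 h (6 members called) the count was 3 without a filter beyond 1 count, 15 without the 3 libraries that stood apart, 23 with its 6 libraries alone and 19 with all 54 libraries in 1 fit. Against CKI at 24 h, N-MacOmtOspc (13) had 20 with all 54 libraries. OmtOspc (3) had 1 without the filter, 5 by DESeq2, 0 with its 6 libraries alone and 11 with all 54, and MacOmtOspc (3) had 7 by DESeq2, 6 without the 3 libraries, 6 with its 6 libraries alone and 15 with all 54. The batch difference of the CKI effect (8) had 0 with all 54 libraries. The fit for comparisons between times held only untreated and CKI libraries, so of the 3 libraries only CKI replicate 1 could be left out there. The time difference (0) had 4 by DESeq2 and 5 without that library. Untreated cells at 48 against 24 h (8) had 5 without the filter, 16 without CKI replicate 1 at 24 h and 5 with all 54. That library is in neither compared group but shared the fit. Untreated cells of batch 2 against batch 1 (27) had 16 with all 54. The cause of these shifts was not tested.

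Leaving out 1 library gave 10 to 22 members for N-MacOmtOspc against untreated cells at 24 h (fewest without untreated replicate 1), 4 to 14 for OmtOspc (fewest without OmtOspc replicate 3) and 2 to 4 for MacOmtOspc (fewest without untreated replicate 1). It gave 1 to 3 for OmtOspc and 1 to 4 for MacOmtOspc against CKI at 24 h (fewest for both without CKI replicate 2). For the batch difference it gave 5 to 11, and for the time difference 0 to 5 (most without CKI replicate 1 at 24 h). For untreated cells over time it gave 1 to 8 (fewest without untreated replicate 1 at 24 h), with only untreated libraries left out in turn. Deviations of same-numbered libraries correlated above 0.1 in 17, 5 and 2 of 45 pairs per set, with a range of -0.69 to 0.67 at 24 h. Pairs with different numbers were not computed for reference, so these counts cannot decide whether replicate numbers pair the libraries. With the replicate block the count for untreated cells over time was 3, and no other count moved by over 1.5 times. At 24 h the spread between libraries limits what could be called.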

Other observations

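Known MYC targets outside the ribosome, 14 of which had enough counts for a test, were lower in part. With CKI 8 were lower at 24 h (14.8% of all genes), 10 at 48 h in batch 1 (27%) and 12 in batch 2 (34.2%), and 0 were called higher in each by edgeR. With OmtOspc and MacOmtOspc at 24 h 3 and 2 were lower (7.71% and 4.84% of all genes). At 48 h 11 were lower and 2 higher with each (all genes: 25.5% to 29.1% in either direction). N-OmtOspc had 8 lower and 0 higher at 24 h and 8 and 2 at 48 h, and N-MacOmtOspc 6 and 1, then 7 and 5. In batch 2 they were 10 and 2 with N-Mac, 10 and 3 with N-Nme, 8 and 4 with N-Omt and 10 and 3 with N-Tri. For these last 8 comparisons all genes had 21.8% to 39.9% in either direction. CDC25A, a phosphatase that drives entry into S phase, had the largest mean log2 fold change over the 15 comparisons with untreated cells (-1.15) and was lower in 11. CAD, the enzyme that starts pyrimidine synthesis (mean -0.92), and SRM, the spermidine synthase (mean -0.83), were lower in 14 each. ODC1, the enzyme that starts polyamine synthesis, went the other way, with 9 comparisons higher and 0 lower (mean 0.53). CAD, SRM and ODC1 were picked after their values were seen. EIF4A1, on the same list, is listed at 0 in every library and was not tested.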
